A study of Mus musculus with 6 samples.

Results

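Gab1 encodes a docking protein that is phosphorylated when growth factor receptors are switched on, and it is described here with 9 further genes of fibroblast growth factor (FGF) to ERK signalling in mouse embryonic stem cells. The group of 10 genes was selected on an earlier result of the same arrays: Gab1 was among the genes that were most reduced in cells with a hairpin against Chd8, and the adaptors, receptor and feedback genes were then placed around it by their known roles. The changes of Gab1 and of the other members are therefore given as descriptions: they come from a fit over all probes, whose calls are counted for the members and from which nothing is read about them. The 10 genes had 18 probes with a single gene symbol, among 19057 genes with such a probe on the array. Of these 18 probes, 12 probes of 7 genes passed the detection filter, which asked for a detection p-value under 0.01 on at least 3 of the 6 arrays, against 9711 genes in all. A probe that carries the symbols of both Flg and Fgfr1 was left unnamed.

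In the FGF pathway, a secreted FGF binds its receptor, the receptor phosphorylates docking proteins, and these recruit the adaptor Grb2 with the Ras exchange factor Sos1 and the phosphatase encoded by Ptpn11 (SHP2). Ras then starts the Raf, MEK and ERK kinase cascade, and active ERK induces its own inhibitors, the Sprouty proteins and dual-specificity phosphatases, together with ETS factors of the Etv4 and Etv5 family. Embryonic stem cells are known to receive FGF4 that they make themselves, and ERK signalling is known to prepare them for leaving the naive pluripotent state.

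The series asked how chromatin remodellers act in mouse embryonic stem cells, and here compared 3 Illumina bead arrays of cells with an shRNA against Chd8 (shChd8) with 3 arrays of control cells. All cells grew in serum medium with leukemia inhibitory factor (LIF) above embryonic fibroblasts inactivated with mitomycin C, so that RNA of these feeder cells can be present. Both were electroporated with a pHYPER vector, and puromycin was added at 24 h for 48 h. What the control vector carries and whether the arrays stand for separate cultures are not given in the sources used here, and a p-value here measures the spread among these 6 arrays alone, part or all of which may be technical. The labels name 1 hairpin target and no rescue, and array position on the slide and group cannot be told apart.

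Non-normalized mean intensity lay between 419.5 and 497.5 on the shChd8 arrays and between 389.9 and 413.1 on the control arrays, with 16482 to 17440 probes detected per array. Chd8, which encodes the ATP-dependent remodeller that the hairpin targets, had normalized log2 intensities of 8.71, 8.64 and 8.36 on the shChd8 arrays and 9.90, 9.97 and 10.02 on the control arrays (ILMN_2703082). Every shChd8 array was below every control array, with a log2 change of -1.39 (SE 0.15, limma adjusted p = 0.00907). The call was lost with an unmoderated test (adjusted p = 0.061). It was also lost in the limma fit that held feeder markers as a covariate (log2 change -1.57, adjusted p = 0.231). A further Chd8 probe was detected on no array. Of the 11 tested embryonic stem cell markers 0 were called by limma, against 2.12% called higher and 3.05% lower over all genes. The median log2 change of these markers was -0.03. Dppa5a, an RNA-binding protein of stem cells, had a log2 change of -0.02 (SE 0.14) and the nuclear receptor gene Esrrb of 0.09 (SE 0.16). Dppa5a was the brightest of these markers, and quantile normalization sets such values by rank. Its non-normalized intensity was 33081, 41295 and 38237 on the shChd8 arrays and 32523, 32483 and 33083 on the control arrays. After normalization shChd8 replicates 1 and 3 had the same value, so little can be read from its change.

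Feeder markers were mostly higher in mean in shChd8 cells. Of 26 listed fibroblast genes 21 were tested, 20 lay above 0 in log2 change, and their median change was 0.93. By limma 2 of the 21 rose and 0 fell, against 2.12% called higher over all genes. The matrix gene Fbln2 rose by 1.13 on its brightest probe (SE 0.22, limma adjusted p = 0.0376). The actin-binding gene Tagln, detected on 3 shChd8 arrays and 2 control arrays, rose by 1.06 (SE 0.22, limma adjusted p = 0.042). Acta2, smooth muscle actin, was the brightest marker, with a log2 change of 1.16 (SE 0.29, limma adjusted p = 0.06). The median deviation of the markers was 0.94, 0.50 and -0.11 on the shChd8 arrays and -0.16, -0.38 and -0.85 on the control arrays, so that shChd8 replicate 3 and control replicate 1 were close. Their summed normalized intensity ranged from 18523 to 41598 on the shChd8 arrays and from 9507 to 17356 on the control arrays. Col3a1, Col5a2, Postn, Fap and Cnn1 did not pass the filter. The part of feeder RNA in the results was not tested, beyond a fit with the markers' median as a covariate, in which 0 genes were called and whose changes are given where they move a value. The markers' median comes from the same arrays and goes largely with group, so that fit separates them poorly and a lost call there decides nothing. In bulk RNA, fewer cells of a type and less RNA per cell cannot be told apart.

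Gab1 was lower in shChd8 cells on its single probe (ILMN_1222009). Its non-normalized intensity was 1783, 1683 and 2191 on the shChd8 arrays and 6108, 5870 and 5409 on the control arrays. After normalization these were log2 intensities of 10.74, 10.57 and 10.78 in shChd8 cells and 12.63, 12.66 and 12.42 in control cells. Gab1 chose the group by this same contrast, so the values in this paragraph are a description and no support for its change. The SD within a group was 0.11 in shChd8 and 0.13 in control cells, beside a log2 change of -1.88 (SE 0.15). This left 27.2% of the control level. Of the 296 genes called lower, 10 had a change as low as that of Gab1 or lower, Gab1 included. The probe was well above background on all 6 arrays. With each array left out in turn the log2 change lay between -1.94 and -1.81. With the markers' median as a covariate it was -1.94 (SE 0.24), in the fit that called 0 genes.

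The promoter sequences of Gab1 and of 3 members with probes well above background are shown, since Gab1 is the called member and the others stand for its partner phosphatase and for ERK targets. They are the 250 bases before the gene start in RefSeq, build GRCm38.p6, on the gene's strand, for Gab1 (chr8:80880520-80880769, minus strand), Ptpn11 (chr5:121191398-121191647, minus strand), Dusp6 (chr10:99262981-99263230, plus strand) and Etv5 (chr16:22439571-22439820, minus strand). Gab1 and Etv5 had a further start, and the window of the more upstream start is shown. Capitals mark a match to the ETS core.
Gab1: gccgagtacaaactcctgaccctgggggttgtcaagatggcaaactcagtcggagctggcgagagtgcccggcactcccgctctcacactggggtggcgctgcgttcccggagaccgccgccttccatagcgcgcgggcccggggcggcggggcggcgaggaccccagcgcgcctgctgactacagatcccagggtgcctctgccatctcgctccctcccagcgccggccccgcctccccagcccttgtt
Ptpn11: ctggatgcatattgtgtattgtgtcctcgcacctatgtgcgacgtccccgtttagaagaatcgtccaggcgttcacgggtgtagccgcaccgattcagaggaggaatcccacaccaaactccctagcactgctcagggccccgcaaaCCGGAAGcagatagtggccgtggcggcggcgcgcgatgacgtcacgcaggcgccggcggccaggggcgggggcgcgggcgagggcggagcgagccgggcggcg
Dusp6: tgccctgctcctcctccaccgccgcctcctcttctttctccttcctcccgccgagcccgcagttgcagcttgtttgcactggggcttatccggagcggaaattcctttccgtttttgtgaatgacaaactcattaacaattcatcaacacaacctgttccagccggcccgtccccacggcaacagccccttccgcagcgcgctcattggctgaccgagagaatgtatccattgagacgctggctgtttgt
Etv5: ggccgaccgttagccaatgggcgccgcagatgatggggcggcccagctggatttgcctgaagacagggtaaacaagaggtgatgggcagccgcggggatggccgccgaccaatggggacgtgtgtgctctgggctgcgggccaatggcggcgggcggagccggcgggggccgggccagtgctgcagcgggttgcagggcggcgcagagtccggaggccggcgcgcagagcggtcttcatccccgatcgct

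Both strands of windows from 250 bases before to 50 bases after the start were searched for the ETS core CCGGAAG and the AP-1 site TGANTCA, neither of which contains the other. RefSeq windows were used for 7 of the 10 members, 10 windows in all. Fgfr1, Spry4 and Etv4 had none among them. Windows on chr18 were left out for the members but not for the share over all windows. The ETS core was found in 1 of these, that of Ptpn11, where it begins 103 bases before the start. It was found in 8.86% of all 32851 windows. The AP-1 site was found in 0 of the 10 windows and in 7.81% of all windows. No match says only that these letters are not in the window. The 250 bases shown for Gab1 were 70.8% G or C with 24 CpG, against a median of 52.4% and 6 CpG in the same 250 bases of all windows. Those shown for Etv5 (71.2% and 27 CpG) and Ptpn11 (66.8% and 31 CpG) were about as rich, and that of Dusp6 less so (56.4% and 16 CpG). The windows not shown had 62.0% and 18 CpG for Etv5 and 70.0% and 25 CpG for Gab1.

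Gab1 was the single called member. Among tested member probes 1 of 12 was called lower and 0 higher at an adjusted p under 0.05, and 3 of the 12 had an unadjusted p under 0.05, as had 25.7% of all tested probes. Over all 16732 tested probes 3.68% were called, 2.12% lower and 1.55% higher. Since Gab1 chose the group, nothing can be read from this count for it. For the other members, 0 of 11 tested probes were called.

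**Figure D1:**
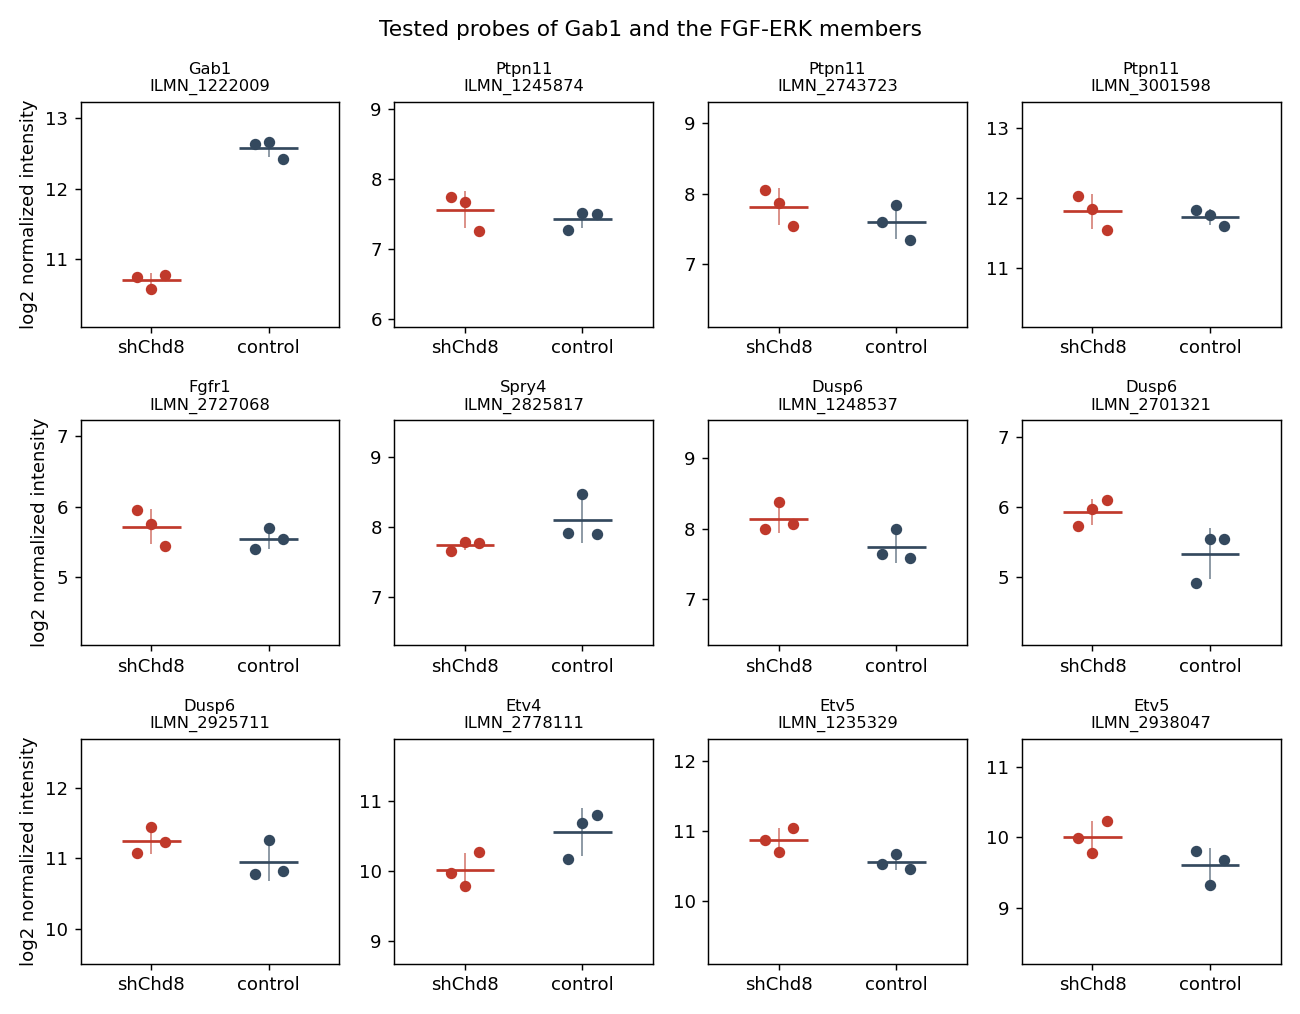
Normalized log2 intensity of the 12 tested member probes on each array, with shChd8 at the left and control at the right of each panel. Points are arrays, horizontal lines are group means and vertical lines are 1 SD (n = 3). All panels span the same number of log2 units, and Gab1, with a log2 change of -1.88, has the widest gap of the probes shown.

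None of the partners of Gab1 at the receptor was called, and several could not be measured. Fgfr1, the FGF receptor, had log2 intensities of 5.95, 5.76 and 5.44 on the shChd8 arrays and 5.39, 5.69 and 5.54 on the control arrays (ILMN_2727068). The groups overlapped, and the log2 change was 0.18 (SE 0.18), or -0.09 with the feeder covariate and 0.06 without background correction. The probe was detected on all 6 arrays but was dim. Its non-normalized intensity lay between 124 and 156, beside array medians of 106 to 123. Little can therefore be read from its small change. The other Fgfr1 probe was detected on no array.

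Ptpn11, whose product SHP2 binds phosphorylated Gab1 and is needed for full Ras activation, was read by 4 probes. On the brightest (ILMN_3001598) it had log2 intensities of 12.04, 11.84 and 11.55 in shChd8 cells and 11.83, 11.76 and 11.60 in control cells. The groups overlapped, with a log2 change of 0.08 (SE 0.17), or -0.31 with the feeder covariate. The probes ILMN_1245874 and ILMN_2743723 had log2 changes of 0.13 (SE 0.18) and 0.22 (SE 0.20), again with overlapping groups. On all 3 of these probes shChd8 replicate 3 was the lowest shChd8 array. The probe ILMN_2681329 was detected on 0 shChd8 arrays and 1 control array and was not tested.

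Grb2, the adaptor that links receptors and docking proteins to Sos1, was detected on 1 of 3 shChd8 arrays and on 0 of 3 control arrays. Its log2 intensities were 4.63, 4.45 and 5.01 on the shChd8 arrays and 5.07, 4.80 and 4.63 on the control arrays, which is the range of probes that are not well above background. Both probes of the exchange factor Sos1 were detected on 0 of 6 arrays, with log2 intensities between 4.27 and 4.90 on the shChd8 arrays and between 4.34 and 4.82 on the control arrays. The Sos1 probes have only an upper bound in both groups and the Grb2 probe in control cells, so no fold is given, and they do not tell whether Grb2 and Sos1 differed.

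The feedback genes of ERK had log2 changes of both signs, and 0 of their tested probes were called. Dusp6, a cytoplasmic phosphatase that removes phosphate from ERK, was higher in mean on all 3 of its probes. On the brightest (ILMN_2925711) it had log2 intensities of 11.08, 11.44 and 11.23 in shChd8 cells and 10.78, 11.26 and 10.82 in control cells. Control replicate 2 exceeded 2 of the shChd8 arrays, so the groups overlapped, with a log2 change of 0.30 (SE 0.19).

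On the Dusp6 probe ILMN_1248537 the log2 intensities were 7.99, 8.38 and 8.06 in shChd8 cells and 7.64, 8.00 and 7.59 in control cells. Here control replicate 2 lay just above the lowest shChd8 array, and the log2 change was 0.40 (SE 0.18). The dimmer probe ILMN_2701321, detected on 3 shChd8 arrays and 2 control arrays, had 5.73, 5.97 and 6.10 in shChd8 cells and 4.93, 5.55 and 5.54 in control cells. These groups did not overlap, and the log2 change was 0.59 (SE 0.21). It was 0.39 without control replicate 1, 0.19 without background correction, 0.21 on the deposited normalized values and 1.02 with the feeder covariate.

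Spry4, a Sprouty protein that restrains signalling from receptors to Ras, was lower in mean. Its log2 intensities were 7.66, 7.78 and 7.77 on the shChd8 arrays and 7.92, 8.47 and 7.91 on the control arrays (ILMN_2825817). All shChd8 arrays lay below all control arrays, but control replicate 2 was far above the other control arrays. The log2 change was -0.36 (SE 0.19), and it was -0.17 without that array. The Spry2 probe was detected on 0 of 6 arrays, with log2 intensities between 4.32 and 4.51 in shChd8 cells and between 4.42 and 5.01 in control cells.

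The ETS factors Etv4 and Etv5, close relatives that are induced by FGF and ERK, had log2 changes of opposite sign, and neither was called. Etv4 had log2 intensities of 9.98, 9.78 and 10.27 on the shChd8 arrays and 10.17, 10.69 and 10.80 on the control arrays (ILMN_2778111). The highest shChd8 array exceeded the lowest control array, and the log2 change was -0.54 (SE 0.21), or -0.12 with the feeder covariate. Etv5 had 10.88, 10.70 and 11.04 on the shChd8 arrays and 10.53, 10.67 and 10.46 on the control arrays on ILMN_1235329. Those groups did not overlap, by a narrow margin, and the log2 change was 0.32 (SE 0.16). On the Etv5 probe ILMN_2938047 the values were 9.99, 9.78 and 10.23 in shChd8 cells and 9.80, 9.32 and 9.68 in control cells. They overlapped, with a log2 change of 0.40 (SE 0.19). The difference between the changes of Etv4 and Etv5 was not tested.

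Of the 12 tested member probes 4 had groups that did not overlap, 2 with shChd8 above and 2 with shChd8 below. Over all tested probes 30.2% had groups that did not overlap. The median log2 change of the 12 probes was 0.20, against -0.01 for all tested probes. These were probes of 7 genes, and probes of a gene share its RNA. The smallest absolute log2 change of any called probe was 0.61, and the 11 tested probes other than that of Gab1 all had changes below it. The SE of the member probes lay between 0.15 and 0.21. With median scaling of the arrays, which moved the median change of all tested probes to 0.18, the Dusp6 probe ILMN_1248537 had a log2 change of 0.64 and was called higher, Etv4 had -0.35 and Spry4 -0.12.

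**Figure D2:**
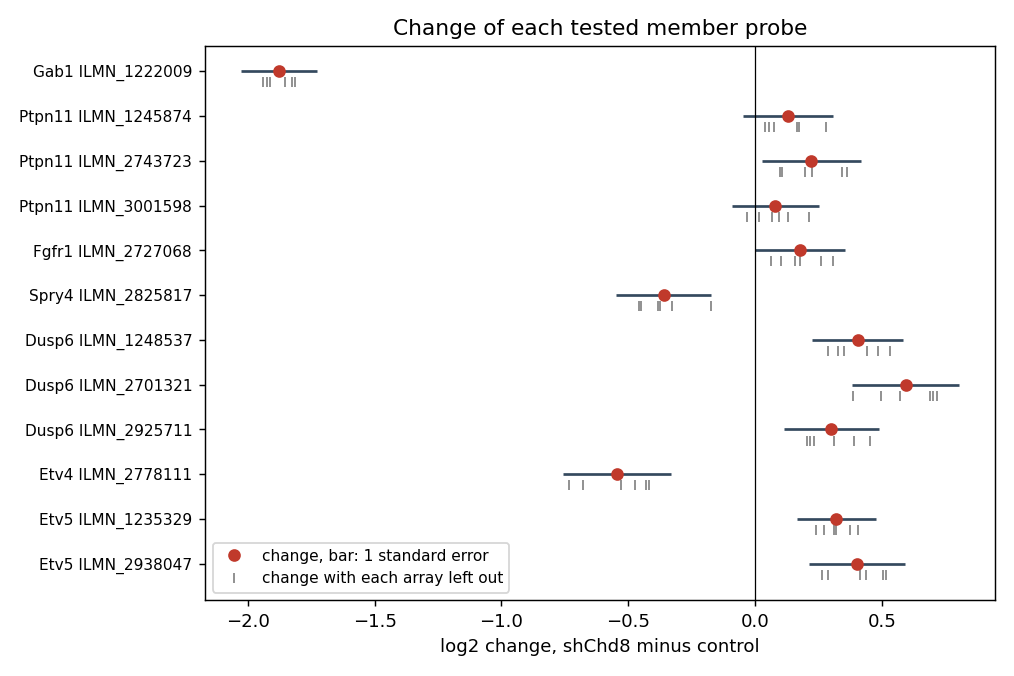
Log2 change, shChd8 minus control, of each tested member probe, with a bar of 1 standard error of the limma fit. Grey ticks below each bar are the change with each of the 6 arrays left out in turn. Gab1 lies at -1.88 and the other probes between -0.54 and 0.59.

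The wider pathway was read from 8 lists of 131 genes, 80 of them tested, and asked whether genes upstream or downstream of Gab1 changed beside it. Of the 80, 2 rose and 2 fell. Over all 9711 tested genes 2.12% were called higher and 3.05% lower. The calls of the 80 are thus near the background. With median scaling the 80 genes gave 19 higher and 2 lower and all genes 1165 higher and 176 lower, against 206 higher and 296 lower. On the brightest probe of each gene 54 had a log2 change above 0 and 26 below, with a median of 0.25 against -0.02 over all genes, of which 4680 lay above 0 and 5031 below.

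**Figure D3:**
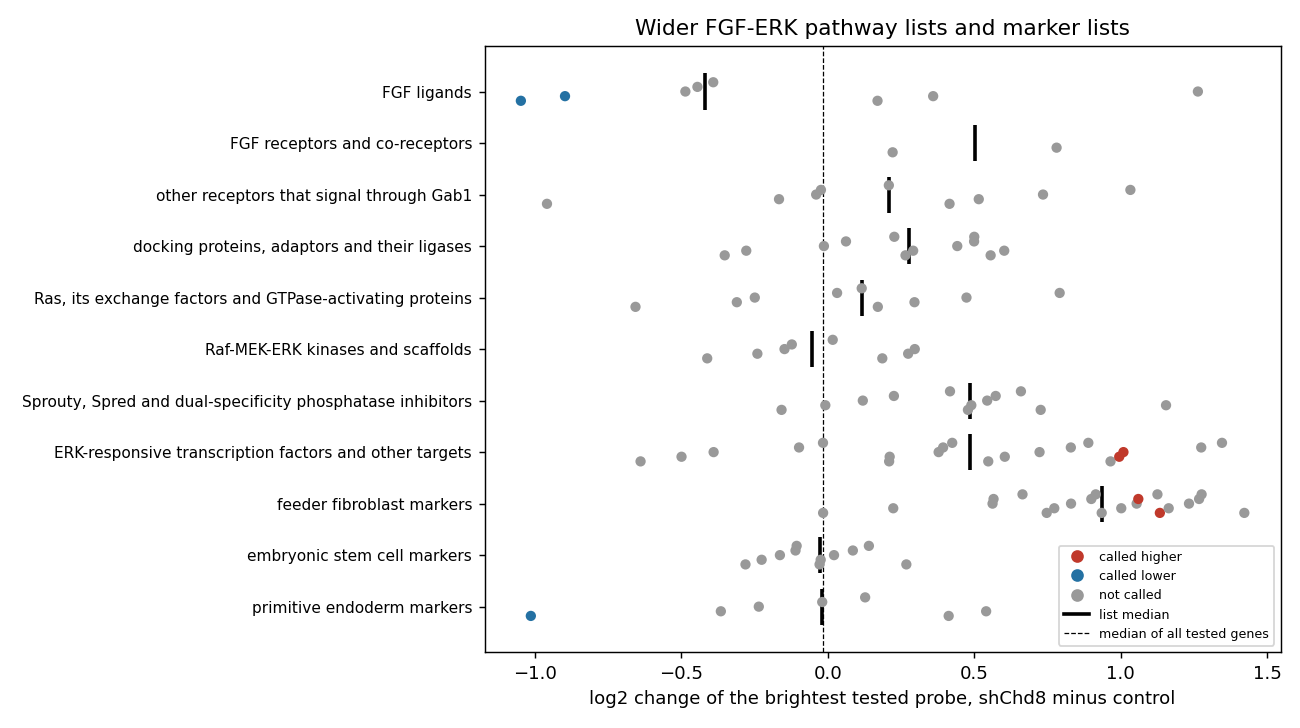
Log2 change, shChd8 minus control, of the brightest tested probe of each gene in the 8 pathway lists and the 3 marker lists. Points are genes, coloured by the call of any of their probes, thick lines are list medians and the dashed line is the median of all tested genes. The fibroblast markers have the highest median, at 0.93, and the FGF ligands the lowest, at -0.42, which moved to 0.01 without the filter on dim probes.

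Of the FGF ligands 8 of 19 were tested and 2 fell, against 3.05% called lower over all genes. Fgf17, an FGF of the FGF8 subfamily, had log2 intensities of 7.12, 7.45 and 7.10 on the shChd8 arrays and 8.10, 8.65 and 8.06 on the control arrays. The groups were apart, with a log2 change of -1.05 (SE 0.20, limma adjusted p = 0.0376). Fgf15, the mouse gene for an FGF that acts as a hormone in the gut and liver, had 5.13, 5.03 and 5.26 on the shChd8 arrays and 6.23, 6.08 and 5.81 on the control arrays. It fell by 0.90 on the log2 scale (SE 0.16, limma adjusted p = 0.0347) and was detected on 2 of 3 shChd8 arrays and on all control arrays. Without background correction its change was -0.29 (limma adjusted p = 0.0703) and on the deposited normalized values -0.32 (limma adjusted p = 0.0623), and neither was called.

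Fgf7, which stromal cells make for neighbouring epithelium, had 10.21, 10.37 and 9.45 on the shChd8 arrays and 8.81, 9.34 and 8.09 on the control arrays, with a log2 change of 1.26 (SE 0.34, limma adjusted p = 0.0717). The lowest array of each group was replicate 3, as it was for the feeder markers. Fgf4, the ligand that stem cells make and which is named here after its values were seen, had a log2 change of -0.49 (SE 0.24, limma adjusted p = 0.251). The median change of the 8 ligands was -0.42. It lay between -0.26 and -0.18 without background correction, with normexp without controls, on the deposited normalized values, with median scaling and with detection on at least 1 array, and was 0.01 without a filter.

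Of the FGF receptors and co-receptors beside Fgfr1, 2 of 6 were tested and 0 were called. The decoy-like receptor gene Fgfrl1 had a log2 change of 0.78 (SE 0.29, limma adjusted p = 0.139) and Fgfr2 of 0.22 (SE 0.28). Among 9 tested receptors of other ligands that also signal through Gab1, 0 were called. Egfr, the epidermal growth factor receptor, had a log2 change of 1.03 (SE 0.33, limma adjusted p = 0.102) and Ret, the receptor of glial-derived factors, of -0.96 (SE 0.28, limma adjusted p = 0.0828), detected on 1 of 3 shChd8 arrays and all control arrays. Egfr had 8.63, 8.31 and 7.60 on the shChd8 arrays and 7.39, 7.52 and 6.53 on the control arrays, again with the lowest value of each group in replicate 3.

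Of 12 tested docking proteins, adaptors and their ligases 0 were called, and 9 had a change above 0 on their brightest probe. The adaptor gene Shc1, named here after its values were seen, is counted among the 9 at 0.27 (SE 0.15). Its probe of lowest p had the opposite sign, at -0.60 (SE 0.17, limma adjusted p = 0.0813). Gab3, the one relative of Gab1 that passed the filter, is named here after its values were seen. It had a log2 change of -0.01 (SE 0.26) on its brightest probe. On its probe of lowest p the change was 0.65 (SE 0.21, limma adjusted p = 0.106), so its probes did not give the same value. Pik3ca, a catalytic subunit of the PI3-kinase that Gab1 recruits, had 0.60 (SE 0.25, limma adjusted p = 0.181; detected on 2 of 3 control arrays) and the insulin receptor substrate Irs2 0.56 (SE 0.21, limma adjusted p = 0.14). The median of this list was 0.28, and between 0.07 and 0.46 over 16 alternatives.

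Ras, its exchange factors and its GTPase-activating proteins gave 0 calls among 9 tested genes, with a median of 0.12, and between 0.03 and 0.35 over 16 alternatives. Sos2, the relative of Sos1, had a log2 change of 0.79 (SE 0.30, limma adjusted p = 0.144; detected on 1 of 3 control arrays) and the exchange factor Rasgrp1 of -0.66 (SE 0.24, limma adjusted p = 0.137). Among 8 tested kinases and scaffolds from Raf to ERK 0 were called. On the brightest probe of each gene their changes spanned -0.41 to 0.30 around a median of -0.05. This median lay between -0.17 and 0.18 over 16 alternatives. The lower end was Pebp1, which encodes an inhibitor of Raf, at -0.41 (SE 0.15), and the upper end the scaffold Iqgap1 at 0.30 (SE 0.15). The probes of lowest p for Araf, Iqgap1 and Mknk1 lay above this span, at 0.53, 0.51 and 0.36. That for Map2k2 lay within it, at -0.26.

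Further Sprouty, Spred and dual-specificity phosphatase genes were above 0 in 10 of 12 tested cases without a call, with a median of 0.48, which was 0.29 without background correction, 0.31 on the deposited normalized values and 0.26 with the feeder covariate. Dusp4, a nuclear ERK phosphatase, had log2 intensities of 8.81, 10.16 and 8.77 on the shChd8 arrays and 7.45, 9.32 and 7.51 on the control arrays. Its replicate 2 stood far above the others in both groups, and the log2 change was 1.15 (SE 0.54, limma adjusted p = 0.224). Dusp5, another nuclear ERK phosphatase, had 8.01, 7.87 and 7.87 on the shChd8 arrays and 7.40, 7.47 and 6.71 on the control arrays, with a change of 0.73 (SE 0.22, limma adjusted p = 0.0866).

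Of 20 tested transcription factors and other genes that respond to ERK, 2 rose and 0 fell. Over all genes 2.12% were called higher and 3.05% lower. Of the 20, 15 had a change above 0 and 5 below, with a median of 0.49. Some uncalled genes are named here after their values were seen. Ets2 had -0.64 (SE 0.14, limma adjusted p = 0.0505) and Srf -0.50 (SE 0.15, limma adjusted p = 0.0932). Ccnd1 had 0.89 (SE 0.22, limma adjusted p = 0.0593). Ets2, Srf and Ccnd1 were each called without background correction, with normexp without controls and on the deposited normalized values. Junb, an AP-1 subunit, had log2 intensities of 9.02, 8.96 and 8.80 on the shChd8 arrays and 7.79, 8.26 and 7.70 on the control arrays, a rise of 1.01 (SE 0.18, limma adjusted p = 0.0339). Phlda1, an early growth factor response gene, had 9.68, 9.45 and 9.28 on the shChd8 arrays and 8.54, 8.71 and 8.19 on the control arrays, a rise of 0.99 (SE 0.19, limma adjusted p = 0.0366). In both, each shChd8 array exceeded each control array.

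Ets1 and the AP-1 subunit gene Fosl2 had larger changes with wider spread. Ets1 had 9.26, 9.42 and 7.99 on the shChd8 arrays and 7.56, 8.17 and 6.91 on the control arrays, with a log2 change of 1.35 (SE 0.42, limma adjusted p = 0.0972). Fosl2 had 9.49, 8.94 and 8.02 on the shChd8 arrays and 7.70, 8.14 and 6.79 on the control arrays, with 1.27 (SE 0.42, limma adjusted p = 0.111). In both genes shChd8 replicate 3 lay below control replicate 2. The median deviation of the ERK-responsive list per array was 0.51, 0.27 and 0.03 in shChd8 cells and -0.15, -0.08 and -0.55 in control cells, while that of the feeder markers was 0.94, 0.50 and -0.11 against -0.16, -0.38 and -0.85. In the covariate fit, which called 0 of all genes tested, the median change of the ERK-responsive list was 0.18, and the changes were 0.79 for Junb and 0.59 for Phlda1, beside -1.15 for Fgf17 and -0.98 for Fgf15. Without the covariate, the list's median was 0.22 with no background correction and 0.24 on the deposited normalized values. The part of feeder RNA in these values was not tested further.

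The calls of Fgf15, Fgf17, Junb and Phlda1 were lost in many alternative fits. Fgf15 was called in 7 of 15, Fgf17 in 7 of 16, and Junb and Phlda1 in 9 of 16 each. These counts include the deposited values and the fit without background correction, which are nearly the same processing. Without a filter on dim probes Fgf17 (limma adjusted p = 0.0662), Junb (0.0531) and Phlda1 (0.0587) lost theirs, and with detection on at least 1 array Fgf17 did (0.0516). Without any 1 of control replicate 1, control replicate 3, shChd8 replicate 1 or shChd8 replicate 2 the number of called pathway genes was 0, without control replicate 2 it was 9 and without shChd8 replicate 3 it was 6. An unmoderated test with all arrays called 0 of the 80. All 4 genes kept their direction in each alternative fit in which their probe was tested, which groups that do not overlap favour.

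Primitive endoderm is a lineage that FGF and ERK signalling induces in the embryo. Of its 11 listed markers 7 were tested, 0 rose and 1 fell: Amn, an endocytic receptor subunit, at -1.01 (SE 0.18, limma adjusted p = 0.0295). Over all genes 2.12% were called higher and 3.05% lower. Lama1, a laminin chain, had a log2 change of -0.24 (SE 0.16) and Dab2, an endocytic adaptor, of 0.54 (SE 0.24). The list median was -0.02. Gata4, Sox17, Foxa2 and Cubn did not pass the filter.

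The genes with the pattern nearest to that of Gab1 were found by Euclidean distance between mean-centred log2 values over the 6 arrays, with 1 probe per gene. They were Phlda2 (distance 0.39), Rhox5 (0.39), Ckmt1 (0.49), Tekt1 (0.53) and Sapcd2 (0.55), whose log2 changes were -1.90, -1.66, -1.75, -1.68 and -1.47. Phlda2 had log2 intensities of 9.08, 9.14 and 9.19 on the shChd8 arrays and 10.82, 11.18 and 11.10 on the control arrays. Rhox5, an X-linked homeobox gene, had 9.66, 9.79 and 9.85 on the shChd8 arrays and 11.49, 11.37 and 11.40 on the control arrays. Pearson's r with Gab1 over the 6 arrays lay between 0.976 and 0.994. This likeness follows from the gap between the groups and is a description of 6 arrays that share 1 slide.

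**Figure D4:**
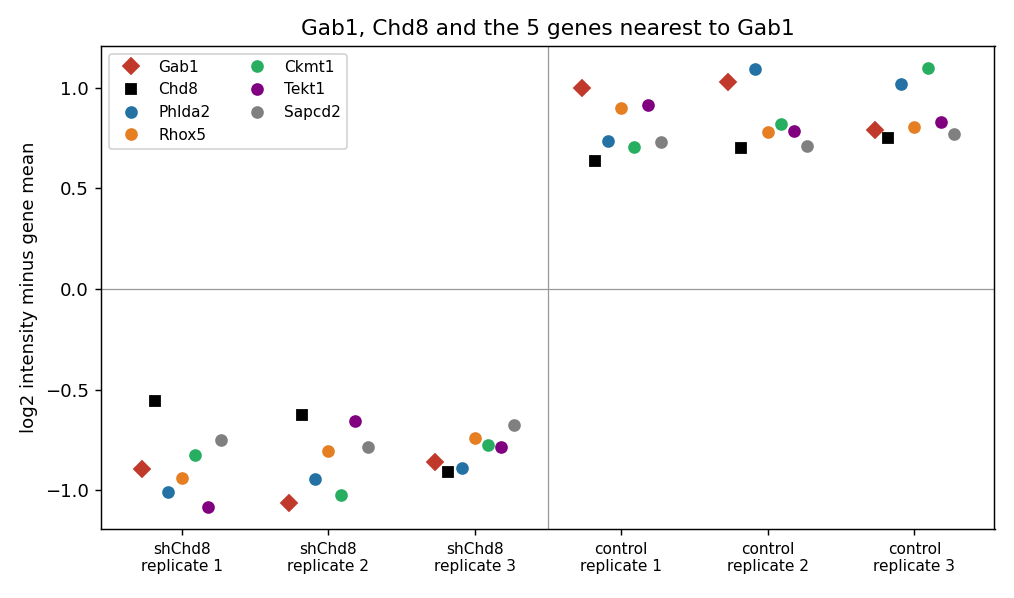
Log2 intensity minus each gene's mean over the 6 arrays for Gab1 (diamonds), Chd8 (squares) and the 5 genes nearest to Gab1 (circles). Each point is 1 array, and points of an array are spread sideways. For all 7 genes the shChd8 arrays lie below 0 and the control arrays above it.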

How the data were processed

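RNA of 6 samples was measured on Illumina bead arrays, 3 shChd8 and 3 control. The deposited non-normalized table holds the intensity and a detection p-value per probe, per the file headers, and the submitters' processing notes name GenomeStudio without a version. A second deposited table of normalized intensity had the rank order of the first (lowest Spearman rho 1) and served as an alternative. It differed from plain quantile normalization of the first by a median of 0.0038%. The alternative without background correction was also quantile normalized, after adding the offset of 16. Where both are given or counted, they are therefore nearly the same processing and not separate checks. The values were background corrected and quantile normalized with neqc of limma 3.58.1 in R 4.3.3 (offset 16), and are on the log2 scale. Detected probes (p-value under 0.01 on at least 3 arrays, 16732 of 45281) were fitted with lmFit and eBayes, two-sided, with Benjamini-Hochberg adjustment over all of them and a threshold of 0.05. A gene counted as called when any of its probes was, with the sign of the probe of lowest p. Symbols came from the platform annotation, updated through RefSeq gene identifiers (34807 of 34885 probes with 1 symbol), and 18 probes with several symbols were left unnamed. Of 131 wider pathway names 119 had a probe used here. Members, lists and tests were chosen with earlier results of these data known. Named were Chd8, all members, every called gene and the 2 largest changes of each pathway list, every called gene and the 2 brightest of each marker list, and the 5 genes nearest to Gab1. The fit was tested on simulated data. Alternatives covered background correction, normalization, the filter, moderation, each array left out, a feeder covariate and the probe rule. The number of arrays limits the precision.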

Additional observations from a re-analysis of the deposited data

How the results depend on the processing

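No paired analysis was made because the labels give no replicate numbers, and those used here follow sample order. Whether arrays of the groups belong together in pairs is not known. The SE and calls treat the arrays as unpaired, also where the same replicate number was lowest or highest in both groups. The log2 change of Gab1, whose value chose the group, lay between -1.94 and -1.74 in 16 alternatives, and was -1.94 with the markers' median as a covariate, where 0 genes were called. Nothing is read from this about Gab1. Chd8 lost its call with that covariate (-1.57) and with the unmoderated test (-1.39). Of 175 fits of the other member probes under alternatives, 169 kept direction and call, 5 reversed and 1 was newly called. With the covariate, Ptpn11 reversed to -0.092 on ILMN_1245874, -0.23 on ILMN_2743723 and -0.31 on ILMN_3001598 and Fgfr1 to -0.088, and 0 member probes were called. With arrays left out in turn, ILMN_3001598 lay between -0.032 and 0.21, reversing without shChd8 replicate 1. Member probes called higher were 1 with median scaling.

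Wider pathway genes called higher and lower were 7 and 3 without background correction, 10 and 4 with normexp without controls, 19 and 2 with median scaling and 9 and 3 both with the deposited normalized values and with an intensity trend. They were 0 and 1 without a filter, 2 and 1 with detection on at least 1 array, 0 and 0 with the unmoderated test and with the covariate, and between 0 and 6 and between 0 and 3 with arrays left out. All genes called higher and lower were 576 and 681 without background correction, 604 and 641 with normexp, 1165 and 176 with median scaling, 627 and 699 with the deposited values, 89 and 170 without a filter, 370 and 463 with detection on all arrays, 87 and 137 with detection on at least 1, 634 and 669 with a trend, 3 and 14 unmoderated, 0 and 0 with the covariate, where 1672 probes had an unadjusted p under 0.05, and between 1 and 360 and between 14 and 319 with arrays left out. The median change of the pathway genes was 0.14 without background correction, 0.46 with median scaling, 0.15 with the deposited values, 0.12 without a filter, 0.16 with the covariate and between 0.20 and 0.30 with arrays left out. The cause of these moves was not tested.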
